A study of Homo sapiens with 12 samples.

Results

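The genes described here are 37 transcripts of the amino acid and stress response that runs through the transcription factor ATF4: ATF4 itself and partner factors, feedback and signalling genes, enzymes of serine, proline and other amino acid synthesis, 12 cytosolic aminoacyl-tRNA synthetases and the tRNA exporter *XPOT*. They were chosen by gene symbol, with earlier results of these data known. By symbol, 37 of 37 were found among the 63152 identifiers of the count table. Transcripts were counted by QuantSeq, a method that reads the 3′ end of polyadenylated RNA, in OPM2 cells, an established line grown from a human multiple myeloma, a cancer of plasma cells. Cells were kept for 2 h with 250 nM 18DS, 1 µM BKM120, 250 nM JQ1 or the vehicle DMSO, and each group held 3 libraries that the labels describe as biological triplicates. All groups are cultures of this 1 line, the labels name no genetic change, and JQ1 and BKM120 were not combined in any library. JQ1 keeps BET proteins from binding acetylated histones through their bromodomains. BKM120 (buparlisib) inhibits the lipid kinase PI3K. 18DS is a code-named compound, and the series title speaks of a chimeric molecule directed at PI3K and BET proteins both.

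ATF4 is made when the initiation factor eIF2 is phosphorylated, a step that lowers most translation but favours that of the *ATF4* message. Protein ATF4 then pairs with C/EBP factors on composite DNA elements and switches on genes for amino acid uptake and synthesis, tRNA charging and feedback regulation. Plasma cells make large amounts of immunoglobulin and use the unfolded protein response. The present values are transcript levels, and neither eIF2 phosphorylation nor ATF4 protein was measured in the files used here.

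The core of the composite element, TGATGNAA (TTNCATCA on the other strand), was looked up on both strands in the promoter windows of RefSeq (GRCh38.p14), which run from 250 bases before to 50 after a gene's start. Of the 37 members, 29 had a window, and 8 of these (27.6%) held the motif. This compares with 251 of 12827 windows of tested genes (1.96%) and 1270 of 35116 windows in all (3.62%). Among the synthetases and *XPOT*, 6 of the 11 with a window (54.5%) held it. The 8 stretches are shown because they are the members' only matches to the motif; each reads 5′ to 3′ on the gene's strand, with the motif in capitals.

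CHAC1, chr15:40953236-40953295, plus strand: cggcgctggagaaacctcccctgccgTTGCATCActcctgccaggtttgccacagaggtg
ASNS, chr7:97872443-97872502, minus strand: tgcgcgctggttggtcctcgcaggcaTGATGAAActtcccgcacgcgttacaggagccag
AARS1, chr16:70289660-70289719, minus strand: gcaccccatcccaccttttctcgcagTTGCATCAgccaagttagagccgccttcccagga
CARS1, chr11:3057407-3057436, minus strand: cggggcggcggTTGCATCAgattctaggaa
IARS1, chr9:92293692-92293721, minus strand: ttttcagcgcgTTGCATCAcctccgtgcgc
MARS1, chr12:57488053-57488082, plus strand: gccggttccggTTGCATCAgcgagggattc
NARS1, chr18:57621804-57621833, minus strand: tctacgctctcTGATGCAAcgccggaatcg
TARS1, chr5:33440956-33440985, plus strand: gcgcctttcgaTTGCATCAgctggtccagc

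In 7 of the 8 stretches the matched letters were TTGCATCA or its reverse complement, and *ASNS* alone had TGATGAAA. The first base of the match lay 209 bases before the start of *CHAC1*, 187 before that of *AARS1* and 68 before that of *ASNS*. In *CARS1*, *IARS1* and *MARS1* it lay 2, 13 and 4 bases before the start, and in *NARS1* and *TARS1* it lay at positions 15 and 3 after it. The windows of the other members with an entry held none of these letters, which includes *ATF4*, *ATF5*, *TRIB3*, *STC2* and *PPP1R15A*. A match is a description of the sequence and was not related to the values below by any test.

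Total counts per library were 5501895 to 7692013, and 13180 genes passed the filter on low counts. Levels are normalized counts (CPM) on TMM-scaled library sizes, and they are compared between samples and not between genes. A gene was called at an edgeR quasi-likelihood adjusted p under 0.05, with the Benjamini-Hochberg adjustment over all 13180 genes. Intervals are 95% intervals of a single gene, not widened for the number of genes. The compounds' known readouts moved: *MYC* averaged 2.51 ± 1.12 CPM with 18DS, 51.4 ± 4.68 CPM with BKM120, 2.54 ± 0.343 CPM with JQ1 and 29.3 ± 2.61 CPM in DMSO, and *KLF2* averaged 130.2 ± 27.5, 291.8 ± 23.9, 49.5 ± 9.67 and 41.9 ± 3.62 CPM in the same order (SD, n = 3 each). All 8 plasma cell and OPM2 markers (*SDC1*, *TNFRSF17*, *XBP1*, *IRF4*, *PRDM1*, *CD38*, *FGFR3* and *NSD2*) passed the filter, and their summed level was 2710 to 2760 CPM with 18DS, 3110 to 3300 CPM with BKM120, 2740 to 2770 CPM with JQ1 and 3210 to 3320 CPM in DMSO. Of the 8, 7 (87.5%) were called with 18DS and 7 with JQ1 against DMSO (1 higher and 6 lower each). With BKM120 3 (37.5%) were called, 1 higher and 2 lower. The shares of all genes called were 21.0% with 18DS, 6.08% with JQ1 and 8.21% with BKM120. The part of these markers in the results below was not tested. Markers of T and NK cells, of myeloid cells and of epithelial cells and fibroblasts summed to at most 1.23, 3.15 and 1.18 CPM in any library, and *CD3D*, *NKG7* and *PDGFRB* had 0 counts. On the third principal component of log2(CPM + 1), which held 8.21% of the variance, 18DS replicate 2 scored 21.8 and the other 18DS libraries -12.5 and -8, so that library stood apart from its group. Since these are bulk samples, fewer cells with a transcript and less of it per cell cannot be told apart.

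Of the 37 members 32 passed the filter. With 18DS against DMSO 9 of the 32 (28.1%) were called, beside 21.0% of all tested genes, 4 of them higher (background 9.96%) and 5 lower (background 11.0%). With BKM120 against DMSO 3 members (9.38%) were called, beside 8.21% of all genes, 1 higher (background 4.07%) and 2 lower (4.14%). With JQ1 against DMSO 5 members (15.6%) were called, beside 6.08% of all genes, 3 higher (background 2.63%) and 2 lower (3.45%). With 18DS against JQ1, the only compounds at a matched dose and thus the 1 pair compared, 1 member (3.12%) was called, higher, beside 4.16% of all genes (2.37% higher and 1.78% lower). The median log2 fold change of the 32 members was 0.02 for 18DS, -0.04 for BKM120 and -0.01 for JQ1 against DMSO and 0.03 for 18DS against JQ1, where the medians of all genes were -0.0033, 0.00019, 0.003 and -0.012. The member calls went both ways. Without 18DS replicate 2, 7 members were called with 18DS against DMSO and 2 with 18DS against JQ1, beside 2085 and 215 of all genes (2769 and 548 with it). The split of the all-gene calls depended on the scaling: for 18DS against DMSO it was 1313 higher and 1456 lower by TMM, 898 and 2021 on library totals, and 1675 and 1213 with upper-quartile factors. For BKM120 these splits were 536 and 546, 439 and 809, and 734 and 431, for JQ1 346 and 455, 306 and 555, and 413 and 379, and for 18DS against JQ1 313 and 235, 208 and 414, and 372 and 207. The comparisons with DMSO share the 3 DMSO libraries.

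**Figure D1:**
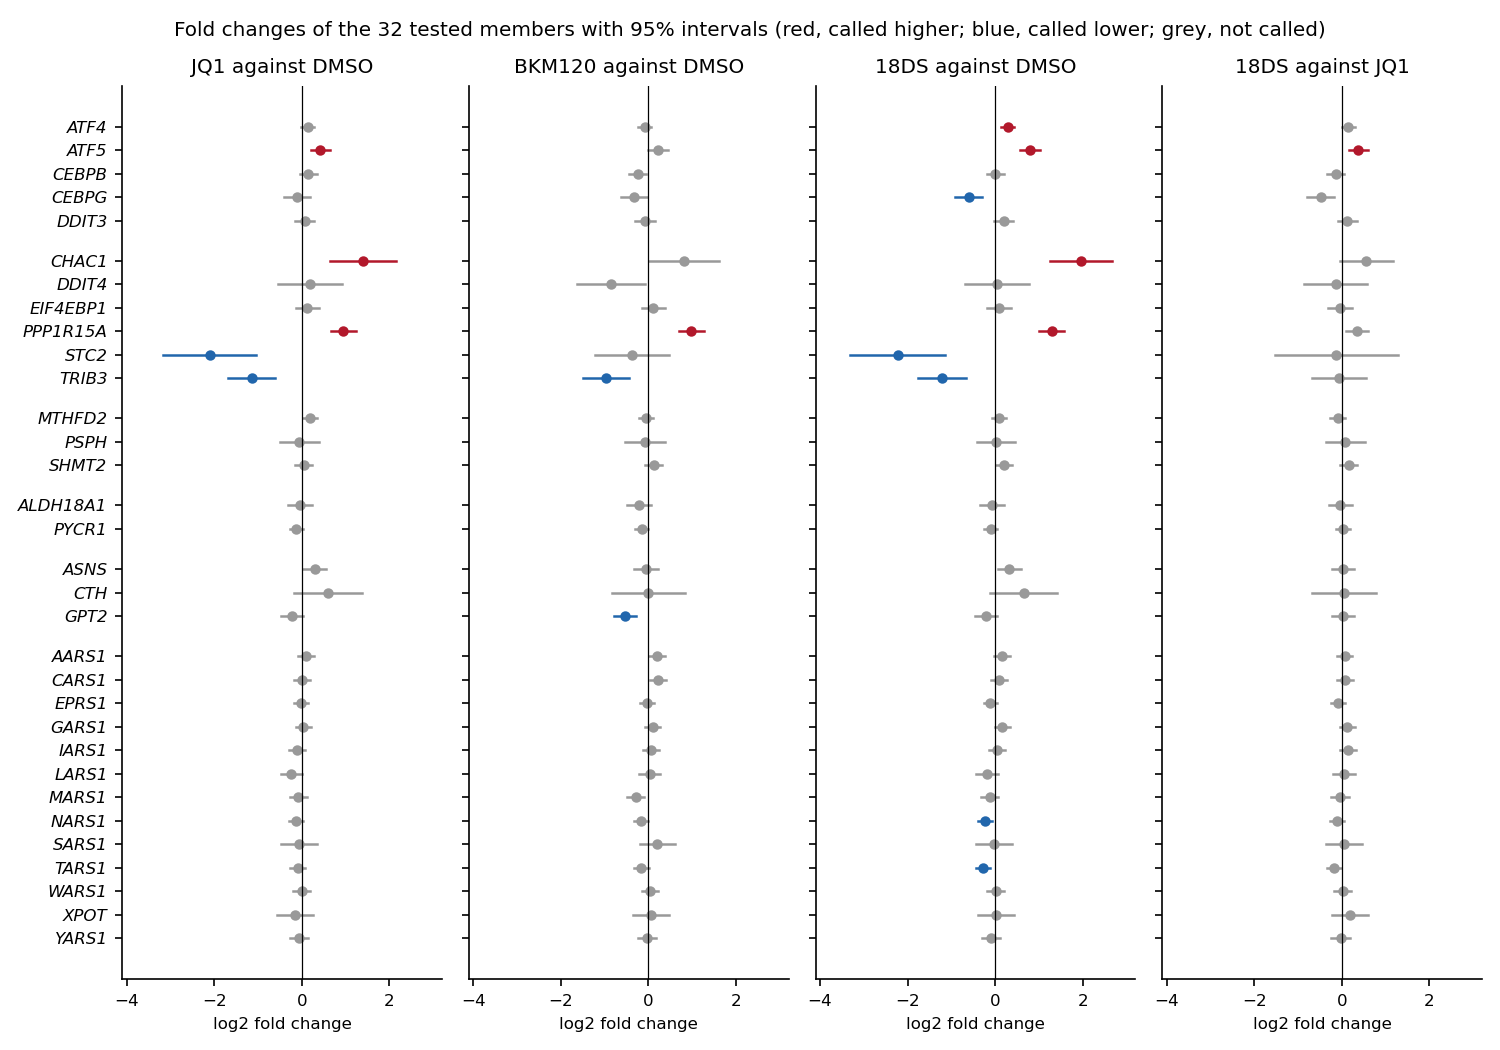
Log2 fold changes of the 32 tested members (dots) with 95% intervals (lines), 1 panel per comparison, with members grouped by role from the transcription factors at the top to the synthetases and *XPOT* at the bottom. Red marks members called higher and blue those called lower; the calls lie mostly among the transcription factors and the feedback and signalling genes, and the synthetases cluster between -0.29 and 0.21.

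Among the stress transcription factors, *ATF4* and *ATF5* rose and *CEBPG* fell with 18DS. These are 3 of the 5 tested (60%), beside 21.0% of all genes. With BKM120 0 were called, beside 8.21% of all genes. With JQ1 1 (20%, beside 6.08%) was called, and with 18DS against JQ1 1 (20%, beside 4.16%). *ATF4* (ENSG00000128272), the factor at the head of the response, measured 311.9, 295.1 and 336.5 CPM with 18DS, 222.8, 256.3 and 249.2 CPM with BKM120, 285.9, 285.9 and 280.7 CPM with JQ1 and 256.7, 261.6 and 255.9 CPM in DMSO. Every 18DS library lay above every other library, every JQ1 library lay above every DMSO library, and the BKM120 and DMSO libraries overlapped. Against DMSO the log2 fold change was 0.29 with 18DS (SE 0.07, edgeR adjusted p = 0.00466), a level 1.22-fold as high, and it was not called with BKM120 (-0.09, interval -0.24 to 0.06, edgeR adjusted p = 0.516) or JQ1 (0.14, interval -0.01 to 0.29, edgeR adjusted p = 0.328). Between 18DS and JQ1 *ATF4* differed by 0.15 (interval -0.003 to 0.30, edgeR adjusted p = 0.268).

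*ATF5*, a related factor whose message is also translated under eIF2 phosphorylation, was the only member called between the matched compounds. It measured 57.5, 49.3 and 58.1 CPM with 18DS, 33.8, 38.7 and 38.1 CPM with BKM120, 44.4, 46.4 and 37.4 CPM with JQ1 and 33.4, 28.99 and 32.7 CPM in DMSO. The 18DS libraries were the highest, the JQ1 libraries lay between them and DMSO without overlap with either, and all BKM120 libraries were above all DMSO libraries. Against DMSO *ATF5* rose by 0.80 (SE 0.11, edgeR adjusted p = 1.02e-06) with 18DS and by 0.42 (SE 0.11, edgeR adjusted p = 0.0142) with JQ1, and was not called with BKM120 (0.22, interval -0.01 to 0.45, edgeR adjusted p = 0.24). It was higher with 18DS than with JQ1 by 0.37 (SE 0.11, edgeR adjusted p = 0.0369). This last call was lost on library totals (edgeR adjusted p = 0.0607) and without 18DS replicate 1 (0.059), 18DS replicate 3 (0.133) or JQ1 replicate 1 (0.0607), 2 (0.0643) or 3 (0.224), and the JQ1 call was lost without DMSO replicate 2 (0.105) or JQ1 replicate 1 (0.0718) or 2 (0.106).

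*CEBPG*, a C/EBP factor that pairs with ATF4, moved the other way. It measured 20.7, 14.9 and 14.1 CPM with 18DS, 21.9, 22.2 and 16.4 CPM with BKM120, 19.8, 24.9 and 25.1 CPM with JQ1 and 23.1, 25.6 and 27.3 CPM in DMSO. The 18DS and the BKM120 libraries all lay below DMSO, and the JQ1 libraries overlapped both 18DS and DMSO. It fell by 0.60 with 18DS (SE 0.15, edgeR adjusted p = 0.0036), and was not called with BKM120 (-0.32, interval -0.62 to -0.02, edgeR adjusted p = 0.173) or JQ1 (-0.12, interval -0.41 to 0.18, edgeR adjusted p = 0.747). For 18DS against JQ1 the difference was -0.48 (interval -0.79 to -0.18) with an edgeR adjusted p of 0.0595, and it was called without 18DS replicate 1 (0.00879).

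*DDIT3*, the CHOP gene of prolonged stress, had a log2 fold change of 0.19 with 18DS (interval -0.02 to 0.41, edgeR adjusted p = 0.198), and *CEBPB*, another C/EBP factor, stood at -0.25 with BKM120 (interval -0.45 to -0.05, edgeR adjusted p = 0.107). Neither was called in any of the 4 comparisons. *NUPR1*, a stress-induced chromatin cofactor, had 14 counts over the 12 libraries and was not tested.

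**Figure D2:**
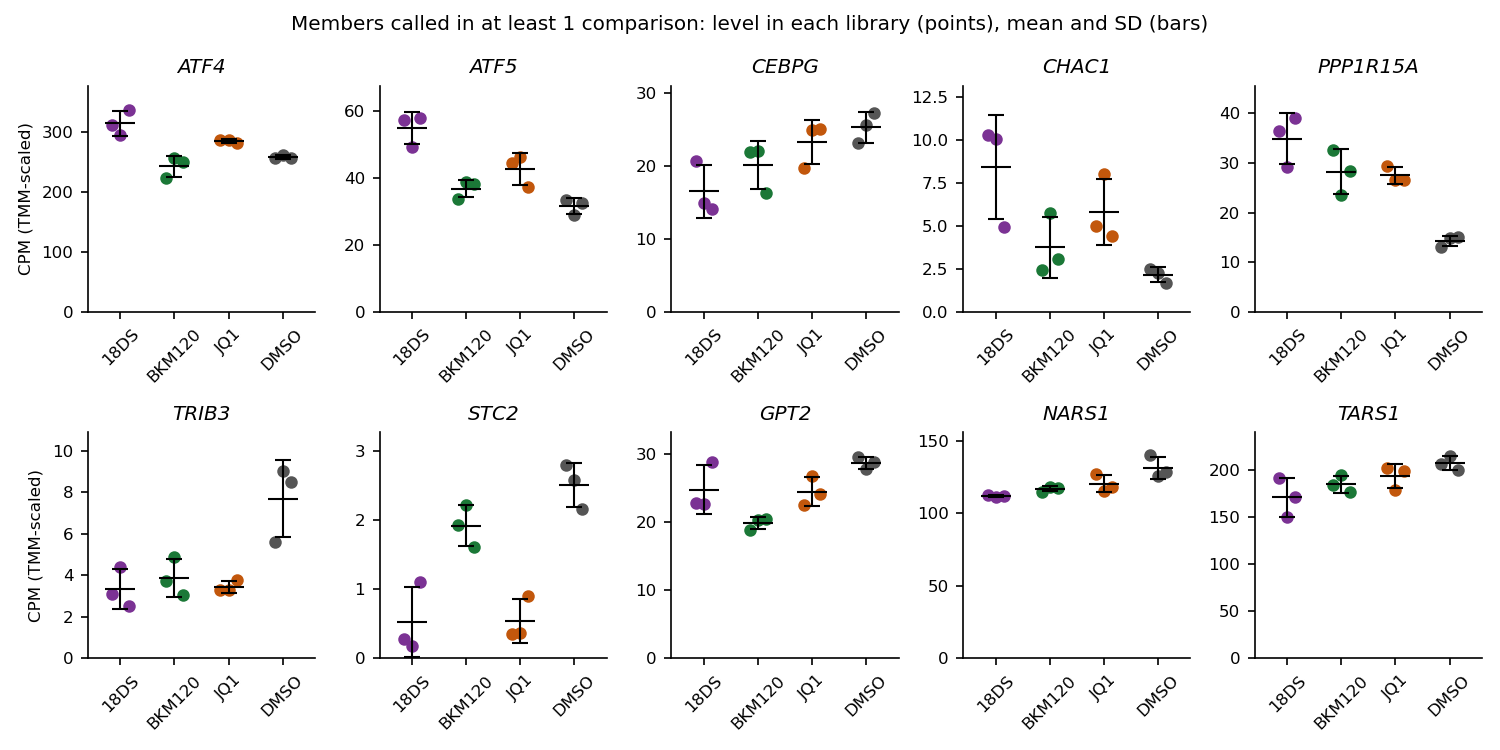
Level in CPM (vertical axes, from 0) of the 10 members called in at least 1 comparison, with a point per library and bars for the mean and SD of 3 libraries in the 18DS, BKM120, JQ1 and DMSO groups. *PPP1R15A* is higher in all 9 treated libraries than in the 3 DMSO libraries and *TRIB3* is lower in all 9, whereas *STC2* is low with 18DS and JQ1 and *GPT2* is lowest with BKM120.

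The largest changes were those of the feedback and signalling genes. Of the 6 tested, 4 (66.7%) were called with 18DS, 2 (33.3%) with BKM120 and 4 (66.7%) with JQ1, in both directions. Of all tested genes 21.0%, 8.21% and 6.08% were called in the same order. *PPP1R15A*, which encodes the GADD34 subunit that directs a phosphatase to eIF2, rose with each compound. It measured 36.4, 29.2 and 39.2 CPM with 18DS, 32.7, 23.6 and 28.4 CPM with BKM120, 29.4, 26.6 and 26.5 CPM with JQ1 and 13.1, 14.8 and 15 CPM in DMSO. No treated library overlapped DMSO, while the 3 treated groups overlapped each other. The log2 fold changes were 1.29 with 18DS (SE 0.14, edgeR adjusted p = 8.95e-09), 0.98 with BKM120 (SE 0.14, edgeR adjusted p = 1.32e-05) and 0.94 with JQ1 (SE 0.14, edgeR adjusted p = 1.42e-05). The 18DS level exceeded that with JQ1 by 0.35 (interval 0.09 to 0.61, edgeR adjusted p = 0.111), a difference called only without 18DS replicate 2 (0.0498).

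*CHAC1*, an enzyme that breaks down glutathione and is among the most used readouts of ATF4 activity, had the largest rise of any member. It measured 10.3, 10.01 and 4.90 CPM with 18DS, 2.42, 5.76 and 3.06 CPM with BKM120, 4.99, 8.0 and 4.40 CPM with JQ1 and 2.50, 2.26 and 1.67 CPM in DMSO, on 380 counts in all. The 18DS and JQ1 libraries were all above DMSO, 1 BKM120 library lay within the DMSO range, and 18DS replicate 3 lay within the JQ1 range. *CHAC1* rose by 1.95 with 18DS (SE 0.34, edgeR adjusted p = 0.000131), a 3.87-fold level, and by 1.39 with JQ1 (SE 0.36, edgeR adjusted p = 0.0168). It was not called with BKM120 (0.81, interval 0.02 to 1.61, edgeR adjusted p = 0.202) or between 18DS and JQ1 (0.56, interval -0.04 to 1.16, edgeR adjusted p = 0.301). The JQ1 call was lost with limma-voom (adjusted p = 0.058) and, by edgeR, without DMSO replicate 2 (adjusted p = 0.0651), DMSO replicate 3 (0.0998) or JQ1 replicate 2 (0.115).

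*TRIB3*, a pseudokinase that binds AKT and restrains ATF4, fell with each compound. It measured 3.10, 4.39 and 2.53 CPM with 18DS, 3.70, 4.87 and 3.06 CPM with BKM120, 3.27, 3.27 and 3.76 CPM with JQ1 and 5.60, 9.02 and 8.50 CPM in DMSO, on 347 counts in all. Every treated library was below the lowest DMSO library. It fell by 1.21 with 18DS (SE 0.27, edgeR adjusted p = 0.00113), by 0.97 with BKM120 (SE 0.26, edgeR adjusted p = 0.0169) and by 1.15 with JQ1 (SE 0.27, edgeR adjusted p = 0.00495). Between 18DS and JQ1 it differed by -0.06, with an interval of -0.67 to 0.55 that leaves room for changes of either sign (edgeR adjusted p = 0.94). The BKM120 call was lost without BKM120 replicate 1 (adjusted p = 0.0722) or 3 (0.106) and without DMSO replicate 2 (0.0903) or 3 (0.0674).

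*STC2*, a secreted glycoprotein induced in stressed cells, fell most of all members, with 18DS and with JQ1. It measured 0.282, 0.176 and 1.11 CPM with 18DS, 1.93, 2.22 and 1.62 CPM with BKM120, 0.344, 0.364 and 0.906 CPM with JQ1 and 2.80, 2.58 and 2.166 CPM in DMSO, on only 105 counts in all. The 18DS and JQ1 libraries were all below DMSO, and BKM120 overlapped DMSO. It fell by 2.23 with 18DS (SE 0.53, edgeR adjusted p = 0.00229) and by 2.1 with JQ1 (SE 0.52, edgeR adjusted p = 0.00911), levels 4.68-fold and 4.29-fold lower, and was not called with BKM120 (-0.38, interval -1.23 to 0.47, edgeR adjusted p = 0.641). The interval between 18DS and JQ1, -1.53 to 1.28, is too wide to rank the compounds (edgeR adjusted p = 0.949). The JQ1 call was lost without JQ1 replicate 1 (adjusted p = 0.0644) or 2 (0.0633).

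*DDIT4* (REDD1), an inhibitor of the kinase mTORC1, showed wide spread within groups. It measured 82.9, 58.5 and 43.6 CPM with 18DS, 43.6, 34.0 and 21.7 CPM with BKM120, 80.5, 80.4 and 45.7 CPM with JQ1 and 59.9, 56.1 and 64.5 CPM in DMSO. All BKM120 libraries were below DMSO, and the others overlapped it. The log2 fold change with BKM120 was -0.85 (interval -1.62 to -0.08, edgeR adjusted p = 0.171), not called in the fit of 4 groups and called when the BKM120 and DMSO libraries were fitted alone (adjusted p = 0.0319). The antisense identifier *DDIT4-AS1* had 4037 counts against 4224 for *DDIT4* and differed from it by at most 26 in a library, so the reads of both cannot be told apart. *EIF4EBP1*, a translational repressor under mTORC1 control, had log2 fold changes of 0.09 with 18DS, 0.11 with BKM120 and 0.13 with JQ1 against DMSO and was called with none. *VLDLR*, a lipoprotein receptor gene, had 9 counts in all and was not tested.

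The amino acid enzymes gave 1 call. Of the 3 tested outside serine and proline synthesis, 1 (33.3%) was called with BKM120, beside 8.21% of all genes. With 18DS and JQ1 against DMSO 0 were called, beside 21.0% and 6.08% of all genes. *GPT2*, the mitochondrial alanine aminotransferase, measured 22.8, 22.7 and 28.9 CPM with 18DS, 18.8, 20.4 and 20.5 CPM with BKM120, 22.5, 26.7 and 24.2 CPM with JQ1 and 29.6, 27.9 and 28.8 CPM in DMSO. The BKM120 libraries were the lowest of all 12, the JQ1 libraries also lay below DMSO, and 18DS replicate 3 lay within the DMSO range. It fell by 0.53 with BKM120 (SE 0.13, edgeR adjusted p = 0.00618), and was not called with 18DS (-0.21, interval -0.46 to 0.03, edgeR adjusted p = 0.223) or JQ1 (-0.23, interval -0.48 to 0.02, edgeR adjusted p = 0.321). The 18DS and BKM120 values stand side by side without a test, because their doses differ.

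*ASNS*, the asparagine synthetase gene and a classic ATF4 target, measured 28.8, 30.6 and 38.2 CPM with 18DS, 21.3, 25.1 and 28.9 CPM with BKM120, 34.4, 31.7 and 29.9 CPM with JQ1 and 28.9, 24.5 and 24.3 CPM in DMSO. The JQ1 libraries were all above DMSO, and 18DS and BKM120 overlapped it. The log2 fold change was 0.32 with 18DS (interval 0.06 to 0.58, edgeR adjusted p = 0.0685) and 0.30 with JQ1 (interval 0.04 to 0.56, edgeR adjusted p = 0.196), neither called; the 18DS value was called with upper-quartile factors (0.0342) and without 18DS replicate 1 (0.027) or DMSO replicate 1 (0.0422). *CTH*, the cystathionine gamma-lyase of cysteine synthesis, stood at 0.65 with 18DS and 0.60 with JQ1 on the log2 scale against DMSO, with intervals of -0.12 to 1.42 and -0.18 to 1.37 and no call.

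The serine and one-carbon enzymes *PSPH*, *SHMT2* and *MTHFD2* and the proline enzymes *ALDH18A1* and *PYCR1* were called in none of the 4 comparisons. The shares of all genes called were 21.0% with 18DS, 8.21% with BKM120, 6.08% with JQ1 and 4.16% with 18DS against JQ1. The serine and one-carbon genes ranged from -0.10 to 0.20 and the proline genes from -0.21 to 0.03 in log2 fold change over these comparisons. Of them *SHMT2*, the mitochondrial serine hydroxymethyltransferase, had the largest value with 18DS, 0.20 (interval 0.01 to 0.39, edgeR adjusted p = 0.13), and was called without 18DS replicate 1 (0.0224). *PYCR1*, the last enzyme of proline synthesis, was below DMSO in all 9 treated libraries, with 154.6 to 169.1 CPM against 170.4 to 187.8 CPM and log2 fold changes of -0.10 with 18DS, -0.15 with BKM120 and -0.13 with JQ1. An antisense identifier at the same locus had 12612 counts beside 12617 for *PYCR1*, at most 3 apart in any library, so these reads may belong to either. The first enzymes of serine synthesis, *PHGDH* (9 counts) and *PSAT1* (19 counts), and *CBS* of the transsulfuration pathway (9 counts) were not tested, with at most 0.667 CPM in any library.

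The aminoacyl-tRNA synthetases load tRNAs with their amino acids. Of the 12, 2 (16.7%, beside 21.0% of all genes) were called with 18DS against DMSO (both lower), 0 with BKM120, 0 with JQ1 and 0 with 18DS against JQ1, where edgeR gave an unadjusted p under 0.05 for 2, 4, 0 and 1 of them and DESeq2 and limma-voom called 2, 0, 0 and 0. Their log2 fold changes ran from -0.27 to 0.17 with 18DS, from -0.29 to 0.21 with BKM120 and from -0.24 to 0.09 with JQ1, and from -0.18 to 0.15 for 18DS against JQ1. The summed level of the 12 was 1029 to 1033 CPM with 18DS, 1048 to 1094 CPM with BKM120, 1025 to 1059 CPM with JQ1 and 1056 to 1104 CPM in DMSO. The 18DS libraries were thus all below DMSO in this sum, and BKM120 and JQ1 overlapped DMSO. The sum is a description with no test, and the median log2 fold change of the 12 (-0.06 with 18DS, 0.03 with BKM120 and -0.06 with JQ1) depended on scaling. With 18DS it was -0.13 on library totals and -0.0063 with upper-quartile factors, where the medians of all genes were -0.075 and 0.046, and with BKM120 it was -0.0044 on library totals.

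*TARS1*, the threonyl-tRNA synthetase, measured 191.4, 149.6 and 171.2 CPM with 18DS, 183.2, 193.9 and 176.3 CPM with BKM120, 201.8, 178.4 and 198.9 CPM with JQ1 and 206.5, 214.4 and 199.4 CPM in DMSO. All 18DS and BKM120 libraries were below DMSO, and 18DS replicate 2 was the lowest of the 12. It fell by 0.27 with 18DS (SE 0.08, edgeR adjusted p = 0.0151), a level 17.3% below DMSO. The call was lost without 18DS replicate 2 (0.122) or DMSO replicate 2 (0.072).

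*NARS1*, the asparaginyl-tRNA synthetase, measured 112.9, 111.0 and 112.0 CPM with 18DS, 115.0, 118.4 and 117.2 CPM with BKM120, 127.1, 115.7 and 118.5 CPM with JQ1 and 140.2, 125.5 and 128.8 CPM in DMSO. The 18DS libraries were the 3 lowest, all BKM120 libraries were below DMSO, and JQ1 overlapped DMSO. It fell by 0.23 with 18DS (SE 0.08, edgeR adjusted p = 0.0314), a 14.9% lower level. This call was lost in 9 of 21 alternatives, among them upper-quartile factors (adjusted p = 0.0972), no expression filter (0.0725), the 2 groups alone (0.075), and without 18DS replicate 1 (0.0549), 2 (0.0673) or 3 (0.0791), DMSO replicate 1 (0.194) or 3 (0.0521) or JQ1 replicate 3 (0.0526). Both *TARS1* and *NARS1* belong to the 8 members whose promoter stretch is printed above. Of the others, *CHAC1* was called higher with 18DS and JQ1. *ASNS*, *AARS1*, *CARS1*, *IARS1* and *MARS1* were called in no comparison in the fit of 4 groups.

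*MARS1*, the methionyl-tRNA synthetase, came nearest to a call with BKM120, where the log2 fold change was -0.29 (interval -0.49 to -0.09, edgeR adjusted p = 0.0569). It was called on library totals (0.0301), with no expression filter (0.0401) and without 18DS replicate 2 (0.031), BKM120 replicate 2 (0.00951) or DMSO replicate 3 (0.0404). *MARS1* and *DDIT3* meet at their 3′ ends on opposite strands, where QuantSeq reads lie, and the strand setting of the counting was not given, so their counts (5404 and 2678) may share reads. The largest positive values with BKM120 were those of *CARS1*, for cysteine (0.21, interval 0.03 to 0.39, edgeR adjusted p = 0.134), *SARS1*, for serine (0.20, interval -0.20 to 0.61, edgeR adjusted p = 0.591), and *AARS1*, for alanine (0.20, interval 0.02 to 0.37, edgeR adjusted p = 0.152), none of them called. *GARS1*, *IARS1*, *EPRS1*, *LARS1*, *SARS1*, *WARS1* and *YARS1* were called in no comparison. *WARS1* overlaps an antisense identifier with 3277 counts beside its own 4745. *XPOT*, which carries tRNAs out of the nucleus, had 34.4, 16.2 and 30.5 CPM with 18DS, so that 18DS replicate 2 was below all other libraries, and its log2 fold change with 18DS was 0.02 (interval -0.39 to 0.43).

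**Figure D3:**
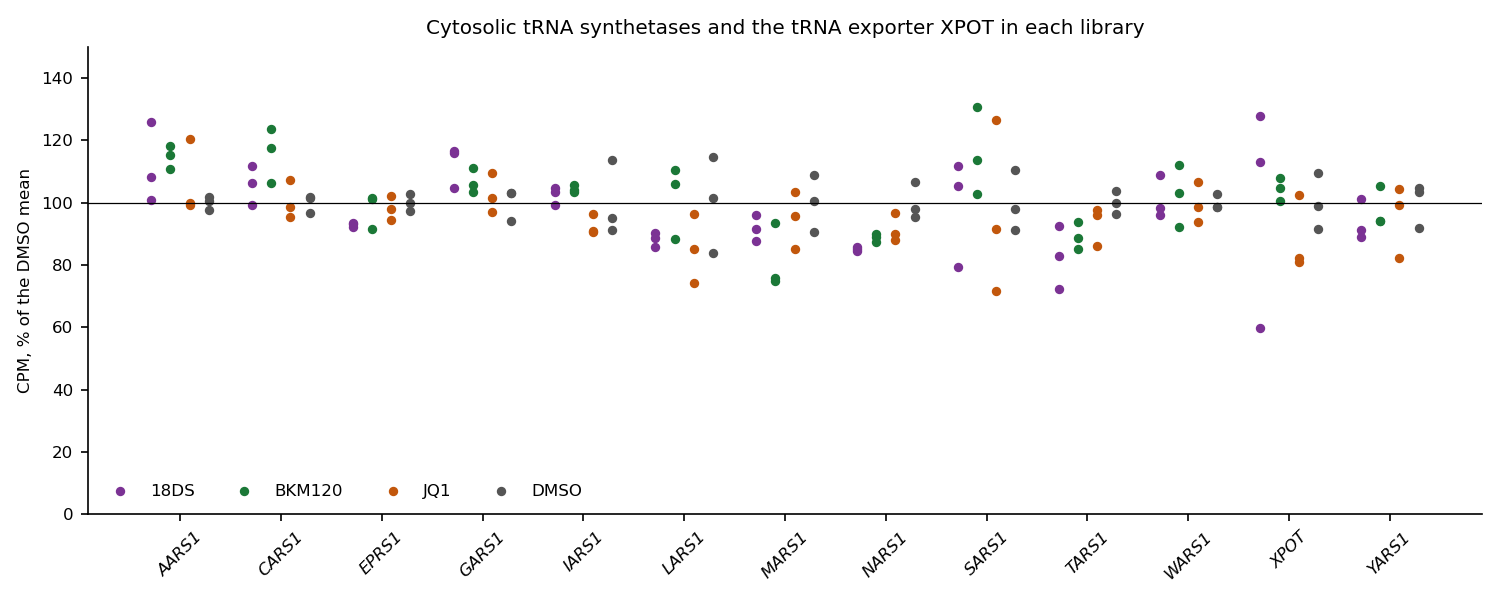
Level of the 12 synthetases and *XPOT* in each library as a percentage of the gene's DMSO mean (vertical axis from 0; the line marks the DMSO mean), with the groups 18DS, BKM120, JQ1 and DMSO from left to right. For the 12 synthetases the libraries span 72.4 to 126% with 18DS, 74.8 to 131% with BKM120, 71.8 to 127% with JQ1 and 84 to 115% in DMSO.

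Beyond the members, 65 other genes of the same pathway were followed, of which 60 were tested. With 18DS against DMSO 13 of the 60 (21.7%) were called, 5 higher and 8 lower; with BKM120 8 (13.3%), 4 higher and 4 lower; with JQ1 3 (5%), 2 higher and 1 lower; and with 18DS against JQ1 5 (8.33%), 3 higher and 2 lower. With 18DS and JQ1 against DMSO these shares lie near those of all genes given above. Of these calls 5 with 18DS, 5 with BKM120 and 2 with JQ1 were lost in none of the alternatives that gave an adjusted p. With 18DS against JQ1 this held for 0. Such alternatives numbered 21 for each call, except 20 for *KLHL24* with BKM120 and 20 for *MARS2* with 18DS against JQ1. For *KLHL24* DESeq2 gave no adjusted p.

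Upstream of ATF4, 1 of 13 eIF2 kinases, phosphatase parts and exchange factors was called with BKM120 and 1 with 18DS. Each is a share of 7.69%, beside 8.21% of all genes with BKM120 and 21.0% with 18DS. *EIF2AK3*, the kinase PERK of the endoplasmic reticulum, averaged 101.0 ± 14.2 CPM with BKM120 and 69.5 ± 3.07 CPM in DMSO (SD, n = 3), a rise of 0.54 (SE 0.10, edgeR adjusted p = 0.00101). *IMPACT*, which restrains the amino acid sensing kinase GCN2, fell by 0.52 with 18DS (SE 0.18, edgeR adjusted p = 0.0318), a call that was lost when each of the 3 DMSO libraries was left out in turn (0.093, 0.0664 and 0.0672), without 18DS replicate 1 (0.0684) or 2 (0.129), with upper-quartile factors (0.0507), with no filter (0.0538) and by DESeq2 (0.0672).

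Of 9 tested amino acid transporters 3 were called with 18DS, all lower, 3 with BKM120 (2 higher, 1 lower) and 0 with JQ1, where edgeR gave an unadjusted p under 0.05 for 4 and DESeq2 and limma-voom called 0. The shares of all genes called were 21.0%, 8.21% and 6.08% in the same order. Among these calls, named here after their values were seen, *SLC38A1* with 18DS was lost in 12 of 21 alternatives, DESeq2 included (0.0672), and *SLC7A11* with BKM120 in 9 of 21, DESeq2 included (0.0589). *SLC38A2*, a neutral amino acid carrier induced by starvation, averaged 65.9 ± 6.25 CPM with BKM120 and 45.1 ± 2.93 CPM in DMSO (SD, n = 3), a rise of 0.54 (SE 0.10, edgeR adjusted p = 0.000542). It averaged 49.4 ± 2.63 CPM with 18DS and 36.0 ± 4.29 CPM with JQ1 (SD, n = 3), and this difference of 0.45 was called (SE 0.11, edgeR adjusted p = 0.0122), though not without JQ1 replicate 1 (0.0698). *SLC7A1*, a carrier of cationic amino acids, fell by 0.46 with 18DS (SE 0.10, edgeR adjusted p = 0.00107), and *SLC3A2*, the shared heavy chain of several carriers, by 0.27 (SE 0.08, edgeR adjusted p = 0.0152), the second lost without 18DS replicate 3 (0.0731) or DMSO replicate 2 (0.0726). *SLC1A5*, a glutamine carrier, fell by 0.66 with BKM120 (SE 0.13, edgeR adjusted p = 0.00498). It measured 159.9, 160.8 and 141.2 CPM with BKM120 and 304.4, 205.4 and 220.4 CPM in DMSO, so DMSO replicate 1 stood above its group. Over the 21 alternatives the log2 fold change ran from -0.77 to -0.46 and stayed called.

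Of 10 other ATF4-linked genes tested, 4 (40%, beside 21.0% of all genes) were called with 18DS, all higher (background 9.96%). With BKM120 1 (10%, beside 8.21%) was called, and with JQ1 2 (20%, beside 6.08%). The log2 fold changes of the 10 with 18DS were positive for 7 and negative for 3, down to -0.87. *ADM2*, on 203 counts in all, lay below DMSO in every treated library and was not called. *SESN2*, a sestrin that senses leucine and restrains mTORC1, measured 51.0, 47.9 and 49.6 CPM with 18DS, 15.8, 13.7 and 16.9 CPM with BKM120, 38.7, 34.6 and 41.1 CPM with JQ1 and 13.0, 14.8 and 13.3 CPM in DMSO. The 18DS libraries lay above the JQ1 libraries and these above the rest, with rises of 1.85 with 18DS (SE 0.12, edgeR adjusted p = 3.48e-14) and 1.48 with JQ1 (SE 0.12, edgeR adjusted p = 5.03e-11). The difference between 18DS and JQ1, 0.37 (SE 0.11, edgeR adjusted p = 0.0397), was lost when each of the 6 libraries compared was left out in turn (adjusted p 0.0561 to 0.192) and on library totals (0.0674). *HERPUD1*, a gene of endoplasmic reticulum protein disposal, rose by 0.42 with 18DS (SE 0.09, edgeR adjusted p = 0.000499) and by 0.38 with JQ1 (SE 0.09, edgeR adjusted p = 0.00382).

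*KLHL24*, an adaptor of a ubiquitin ligase, measured 4.09, 2.11 and 2.05 CPM with 18DS, 6.60, 6.20 and 6.47 CPM with BKM120, 1.89, 1.46 and 2.20 CPM with JQ1 and 1.03, 1.13 and 1.33 CPM in DMSO. These levels rest on only 231 counts in all. All treated libraries were above DMSO, and those of BKM120 were the highest. It rose by 2.45 with BKM120 (SE 0.35, edgeR adjusted p = 8.4e-06) and by 1.26 with 18DS (SE 0.39, edgeR adjusted p = 0.0178), the 18DS call being lost without 18DS replicate 1 (0.169) or DMSO replicate 1 (0.0672) or 2 (0.0501). *ATF3*, a stress-induced repressor with 339 counts in all, rose by 0.97 with 18DS (SE 0.28, edgeR adjusted p = 0.0121). It lost its call without 18DS replicate 3 (0.171) or DMSO replicate 1 (0.0501).

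**Figure D4:**
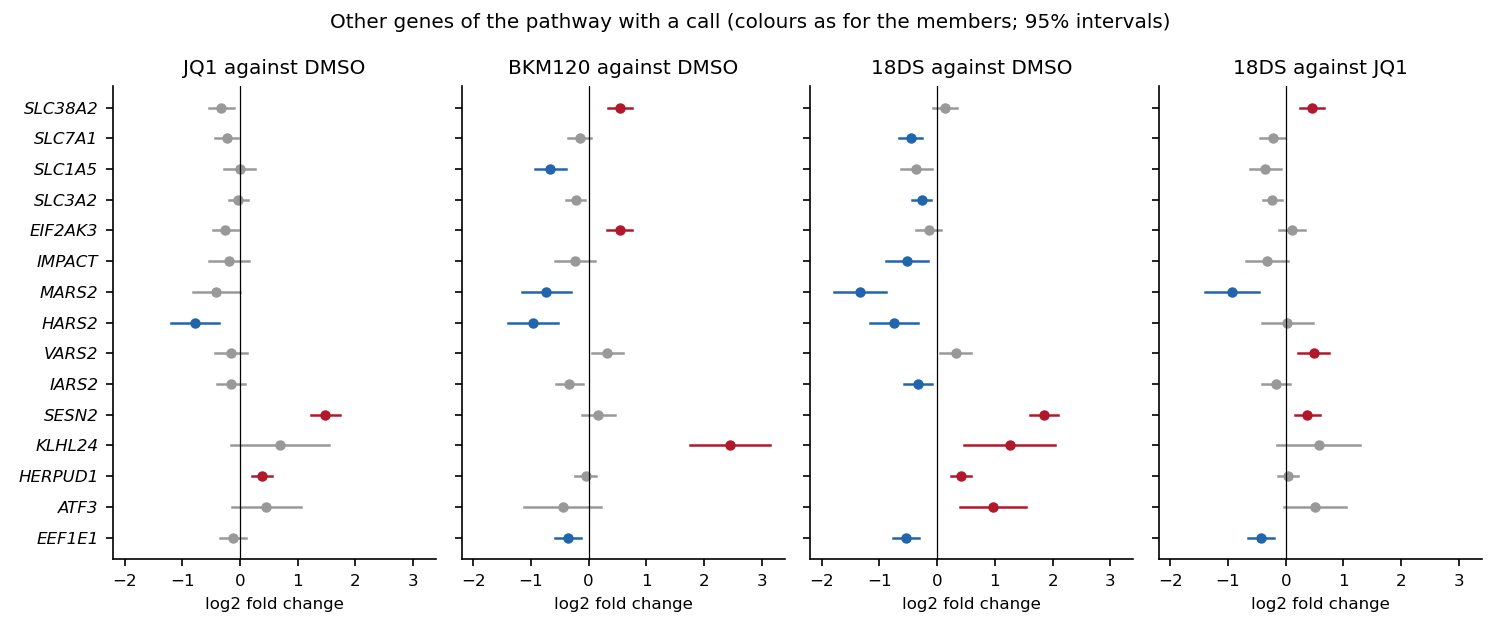
Log2 fold changes (dots) with 95% intervals (lines) of the 15 named pathway genes that are no members, in the 4 comparisons, red where called higher and blue where called lower. *SESN2* is called with JQ1 and 18DS, *KLHL24* is highest with BKM120, and *HARS2* is called lower with each compound against DMSO.

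Of 11 other cytosolic synthetases and scaffold proteins 1 (9.09%) was called with 18DS and with BKM120 against DMSO and with 18DS against JQ1. With JQ1 against DMSO 0 were called. The shares of all genes called were 21.0%, 8.21%, 4.16% and 6.08% in the same order. The only gene called in any of the 4 comparisons was *EEF1E1*, a scaffold protein of the multisynthetase complex. It averaged 37.4 ± 6.59 CPM with 18DS, 42.4 ± 5.67 CPM with BKM120, 50.4 ± 1.11 CPM with JQ1 and 54.7 ± 2.52 CPM in DMSO (SD, n = 3), and fell by 0.54 with 18DS (SE 0.11, edgeR adjusted p = 0.000472) and by 0.36 with BKM120 (SE 0.11, edgeR adjusted p = 0.0351). The BKM120 call was lost with upper-quartile factors (0.0578), without BKM120 replicate 1 (0.127) or 3 (0.203) or without DMSO replicate 1 (0.139), 2 (0.0541) or 3 (0.0868). Against JQ1 *EEF1E1* was lower with 18DS by 0.42 (SE 0.11, edgeR adjusted p = 0.0259), a call lost without 18DS replicate 2 (0.171) or 3 (0.0816) or JQ1 replicate 1 (0.0665), 2 (0.0893) or 3 (0.124).

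Of 17 mitochondrial synthetases 4 (23.5%, beside 21.0% of all genes) were called with 18DS, 2 (11.8%, beside 8.21%) with BKM120 and 1 (5.88%, beside 6.08%) with JQ1. *MARS2*, for mitochondrial methionine, measured 4.51, 5.09 and 2.84 CPM with 18DS, 6.60, 6.79 and 5.39 CPM with BKM120, 7.40, 7.46 and 8.68 CPM with JQ1 and 10.02, 11.3 and 10.2 CPM in DMSO. Every treated library was below DMSO, and the 18DS libraries were the lowest. It fell by 1.34 with 18DS (SE 0.22, edgeR adjusted p = 2.98e-05) and by 0.73 with BKM120 (SE 0.21, edgeR adjusted p = 0.0226), and was lower with 18DS than with JQ1 by 0.93 on the log2 scale (log2 fold change -0.93, SE 0.23, edgeR adjusted p = 0.0178). The BKM120 call was lost without BKM120 replicate 1 (0.0598) or 3 (0.12) or DMSO replicate 1 (0.0575) or 2 (0.0833), and the call against JQ1 without 18DS replicate 3 (0.119) or JQ1 replicate 2 (0.057) or 3 (0.117).

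*HARS2*, for mitochondrial histidine, averaged 7.06 ± 0.736 CPM with 18DS, 6.13 ± 0.76 CPM with BKM120, 6.80 ± 2.02 CPM with JQ1 and 11.9 ± 1.52 CPM in DMSO (SD, n = 3). It fell by 0.75 with 18DS (edgeR adjusted p = 0.00753), by 0.96 with BKM120 (edgeR adjusted p = 0.00277) and by 0.78 with JQ1 (edgeR adjusted p = 0.0149), with SEs of 0.20, 0.21 and 0.21. Without DMSO replicate 3 the 18DS and JQ1 calls were lost (0.0503 and 0.109), and the JQ1 call also without JQ1 replicate 1 (0.122) or 2 (0.0837). *VARS2* was higher with 18DS than with JQ1 by 0.48 (SE 0.13, edgeR adjusted p = 0.0337), lost without 18DS replicate 2 (0.179) or JQ1 replicate 1 (0.105) or 3 (0.162). *IARS2* fell by 0.33 with 18DS (SE 0.12, edgeR adjusted p = 0.0422), a call lost in 10 of 21 alternatives. Among them were DESeq2 (adjusted p = 0.0845) and, by edgeR, the 2 groups alone (0.0695) and upper-quartile factors (0.074). It was also lost without 18DS replicate 2 (0.27) or DMSO replicate 1 (0.26).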

How the data were processed

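QuantSeq 3′ mRNA libraries (75-base single-end reads) of OPM2 cells were used, 3 per group. The 1 file used is a table that the authors deposited of raw counts, not normalized, with a row per Ensembl gene. Per the submitters' processing notes the tools named were HISAT2 2.1.0, featureCounts, Subread, SAMtools 1.9, cutadapt 1.7, bcl2fastq 2.17.1.14, FastQC 0.11.5 and limma, and the build hg19. For annotation release, strand and multi-mapping reads the settings are not given in the sources used.

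Members and lists were chosen with earlier results of these data known. Named are all members, with values per library for called ones, and up to 4 called genes per pathway list with the smallest adjusted p; *DDIT4*, *ASNS*, *SESN2* and others were given per library after their values were seen. Genes were kept by filterByExpr (minimum count 10, total 15). One robust edgeR 4.0.16 quasi-likelihood fit (R 4.3.3; common biological coefficient of variation 0.0862, 8 residual degrees of freedom, TMM factors 0.971 to 1.03) over 12 libraries tested 4 contrasts, with no replicate block; 18DS was not tested against BKM120. It was tested on simulated data. Alternatives used DESeq2 1.42.0 and limma 3.58.1; those for pathway genes were added after seeing the data. Figures used matplotlib 3.10.9.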

Additional observations from a re-analysis of the deposited data

How the results depend on the processing

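Each member was refitted under 21 alternatives (3 other scalings, 2 other filters, DESeq2, limma-voom, the 2 groups alone, a replicate block and 12 single-library omissions). No called fold change of a member changed sign. Of the fold changes 2628 kept their side of the threshold, 30 lost a call and 15 gained one; the losses and most gains stand in the text beside their values. The calls of *ATF4*, *ATF5*, *CEBPG*, *CHAC1*, *PPP1R15A* and *TRIB3* with 18DS, of *PPP1R15A* and *TRIB3* with JQ1 and of *PPP1R15A* and *GPT2* with BKM120 held in all 21, and that of *STC2* with 18DS in the 20 that tested it, since a minimum count of 30 removed it. DESeq2 gave no adjusted p for *TRIB3* with BKM120. With no expression filter 2 members instead of 1 were called for 18DS against JQ1, and *CEBPG* was also called there on library totals (0.0386) and with no filter (0.0405). Leaving out 1 library gave 7 to 10 member calls with 18DS, 2 to 4 with BKM120, 2 to 5 with JQ1 and 0 to 2 for 18DS against JQ1, and all-gene counts of 1909 to 3026, 482 to 1564, 504 to 1021 and 105 to 1027. With the replicate block the member counts were 9, 4, 5 and 1, and *DDIT4* was called with BKM120 (0.0387). Replicate numbers carry no stated pairing, and the deviations of same-numbered samples correlated at -0.128 to 0.0919. No median of all genes moved by over 0.1 under any scaling. Low counts limit *CHAC1*, *TRIB3*, *STC2* and *CTH*, whose intervals are wide, and *CBS*, *NUPR1*, *PHGDH*, *PSAT1* and *VLDLR* gave no test at this depth. Among the other pathway genes named, low counts also limit *KLHL24*, *ATF3* and *ADM2*.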
